A study of Mus musculus with 36 samples.

Results

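The hypothalamus of Dicer cKO mice was compared between 8 weeks and 4 weeks after the deletion was induced, with 3 arrays at each time. These 6 arrays were taken by their tissue, treatment and time labels from a series of 36 arrays, 12 of which are of the hypothalamus. All mice carried a hemizygous Camk2a-CreERT2 transgene and 2 floxed alleles of Dicer on a C57BL/6J background. The cKO mice were injected with tamoxifen at 8 weeks of age, 10 mg in all over 5 days, and the 6 control arrays (3 at 8 weeks and 3 at 4 weeks) came from mice of the same genotype injected with the oil and ethanol vehicle. Each array came from a different animal, so the 2 times are different mice, those of the later time also being 4 weeks older. The times follow the study's interest in an obesity that comes and goes: at 4 weeks the cKO mice were gaining weight, and at 8 weeks they were losing it again. Tamoxifen itself was not given to mice without the floxed alleles here, and the sex of the animals was not stated in the sources used here.

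Dicer cuts precursor hairpins into mature microRNAs, which bind messenger RNAs and lower their stability and translation. The Camk2a promoter drives Cre in excitatory neurons of the forebrain, and microglia, astrocytes, oligodendrocytes and neurons without Camk2a keep an intact Dicer gene. The hypothalamus holds the neurons that set food intake and energy use, among them the arcuate neurons with Agrp and Npy, which raise appetite, and those with Pomc and Cartpt, which lower it. It also holds the orexin (Hcrt) and melanin-concentrating hormone (Pmch) neurons of the lateral area and the suprachiasmatic nucleus, the circadian pacemaker. Microglia are the resident macrophages of the brain. On damage or infection they raise lysosomal, complement and antigen-presenting genes, and interferons released in the tissue induce a shared set of antiviral genes.

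The dissected tissue carried the defining peptides of the hypothalamus at high level. Pmch was at 13.35, 13.50 and 13.27 in cKO hypothalamus at 8 weeks, against 13.40, 13.43 and 13.30 at 4 weeks, on the log2 scale of the deposited values, where 1 unit is a doubling. Array medians of the cKO arrays lay between 6.33 and 6.35. Dicer1 itself differed by 0.02 (SE 0.12) between the times, and since it is not known here whether its probe sets cover the floxed exon, they are no check of the deletion. The difference between the 3′ and the 5′ actin control probe sets, a measure of RNA integrity, was 1.18, 1.24 and 1.20 at 8 weeks and 1.13, 1.24 and 1.29 at 4 weeks. The means differed by −0.01 (exact two-sided permutation test, p = 1, with 0.1 the smallest p that 3 against 3 arrays allow).

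The 3 arrays of the 8-week cKO hypothalamus were not alike. Over all genes tested, replicates 1 and 2 deviated from the mean of the 12 arrays in the same way. The correlation of their deviations across genes was 0.65, a description, since genes are not independent. Replicate 3 gave −0.16 and −0.22 with them. Values this low were also found within control groups, such as −0.30 and −0.34 for 4-week replicate 1 with replicates 2 and 3. The 0.65 was the highest of all pairs, and the next within a group was 0.27. By this measure replicates 1 and 2 were the unusual arrays. The immune genes described next were high in replicates 1 and 2 and close to the 4-week level in replicate 3, and replicate 3 instead carried the highest level of genes of the leptomeninges, the membranes around the brain. The 20 leptomeningeal genes had a median deviation of −0.47, −0.63 and 1.73 in the 8-week cKO arrays and of −0.27, −0.35 and −0.29 in the 4-week cKO arrays. High values were also found in controls, 1.25 in 8-week replicate 3 and 1.01 in 4-week replicate 1. The labels give no reason to leave replicate 3 out, and the results are therefore given with it and, where they move, without it. Replicate 3 was singled out by these same values. Leaving it out narrows the spread at 8 weeks to that of replicates 1 and 2, which are alike. Counts and p-values given without it are therefore descriptions, and their FDR does not hold as an error rate.

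Across 15423 genes, 2 changed between 4 and 8 weeks in cKO hypothalamus at a false discovery rate (FDR) of 15%, which is 0.013% of the genes tested (limma, with Benjamini-Hochberg adjustment over all genes). Tspo rose and Dlk1 fell. Without 8-week replicate 3, 533 genes passed, 481 of them higher (3.12%) and 52 lower (0.337%), and both Tspo and Dlk1 were among them. Leaving out any other single array gave at most 4 calls. With the range of the animal numbers as a block, 115 genes passed with all arrays. At an unadjusted p under 0.05 with all arrays, 825 genes were higher (5.35%) and 445 lower (2.89%), and the median change over all genes was −0.0002. The 3 arrays of one time all lay above the 3 of the other for 978 genes that were higher at 8 weeks (6.34%) and for 877 that were lower (5.69%).

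Tspo encodes a protein of the outer mitochondrial membrane that is low in resting brain and is used in imaging as a marker of activated glia. Its level was 8.14, 7.78 and 7.61 in cKO at 8 weeks, against 6.72, 6.43 and 6.63 in cKO at 4 weeks, and between 6.70 and 6.99 in the 6 control arrays. All 3 arrays at 8 weeks, replicate 3 among them, lay above all 9 others. The rise was 2.38-fold (log2 1.25, SE 0.13, adjusted p = 0.0128) and came to 1.37 without replicate 3 (adjusted p = 8.5e-05). The other 2 probe sets of the gene differed by 1.08 and 0.75.

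Dlk1 (also called Pref-1), a transmembrane protein with EGF-like repeats that restrains the formation of fat cells and is made by several kinds of hypothalamic neuron, was at 9.36, 9.19 and 9.45 in cKO at 8 weeks, against 10.10, 10.01 and 9.86 in cKO at 4 weeks. The control arrays lay between 9.63 and 9.88, so that all 8-week cKO arrays were below every control and 2 of the 3 4-week cKO arrays above. The fall was 0.66 on the log2 scale (SE 0.09, adjusted p = 0.0933). A second probe set of the gene differed by −0.40. The call for Dlk1 is close to the threshold. Leaving out 1 array moved its adjusted p between 0.0016 (without 8-week cKO replicate 3) and 0.604 (without 4-week cKO replicate 2), and the call was also lost without 8-week cKO replicate 1 (0.231) or 2 (0.251), 4-week cKO replicate 1 (0.260), 8-week control replicate 3 (0.204) or any of the 3 4-week controls (0.175, 0.212 and 0.195).

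Below these 2 genes, 111 genes shared the next adjusted p of 0.206, and the genes named from here on did not pass with all arrays unless said otherwise. Among them were Lyz2 and Ifitm3 on the higher side. Lyz2, the lysozyme of macrophages and microglia, was at 9.61, 9.10 and 8.76 at 8 weeks, against 7.77, 7.26 and 7.09 at 4 weeks, and all 8-week arrays were above all others (difference 1.79, SE 0.29, adjusted p = 0.206). Ifitm3, an interferon-induced membrane protein that blocks virus entry, was at 11.02, 10.44 and 10.14, against 9.49, 9.14 and 9.15, a difference of 1.28 (SE 0.24, adjusted p = 0.206). Like Tspo, these 2 genes were also high in replicate 3. The controls lay between 7.06 and 8.17 for Lyz2 and between 8.76 and 9.63 for Ifitm3. The 2 highest controls for Lyz2 (8.17 and 8.08) were those with the highest leptomeningeal level (1.01 and 1.25). The part of that level in the Lyz2 value of replicate 3 was not tested. Lyz2 and Ifitm3 belong to families of near-identical copies whose RNA can bind the same probes.

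**Figure D1:**
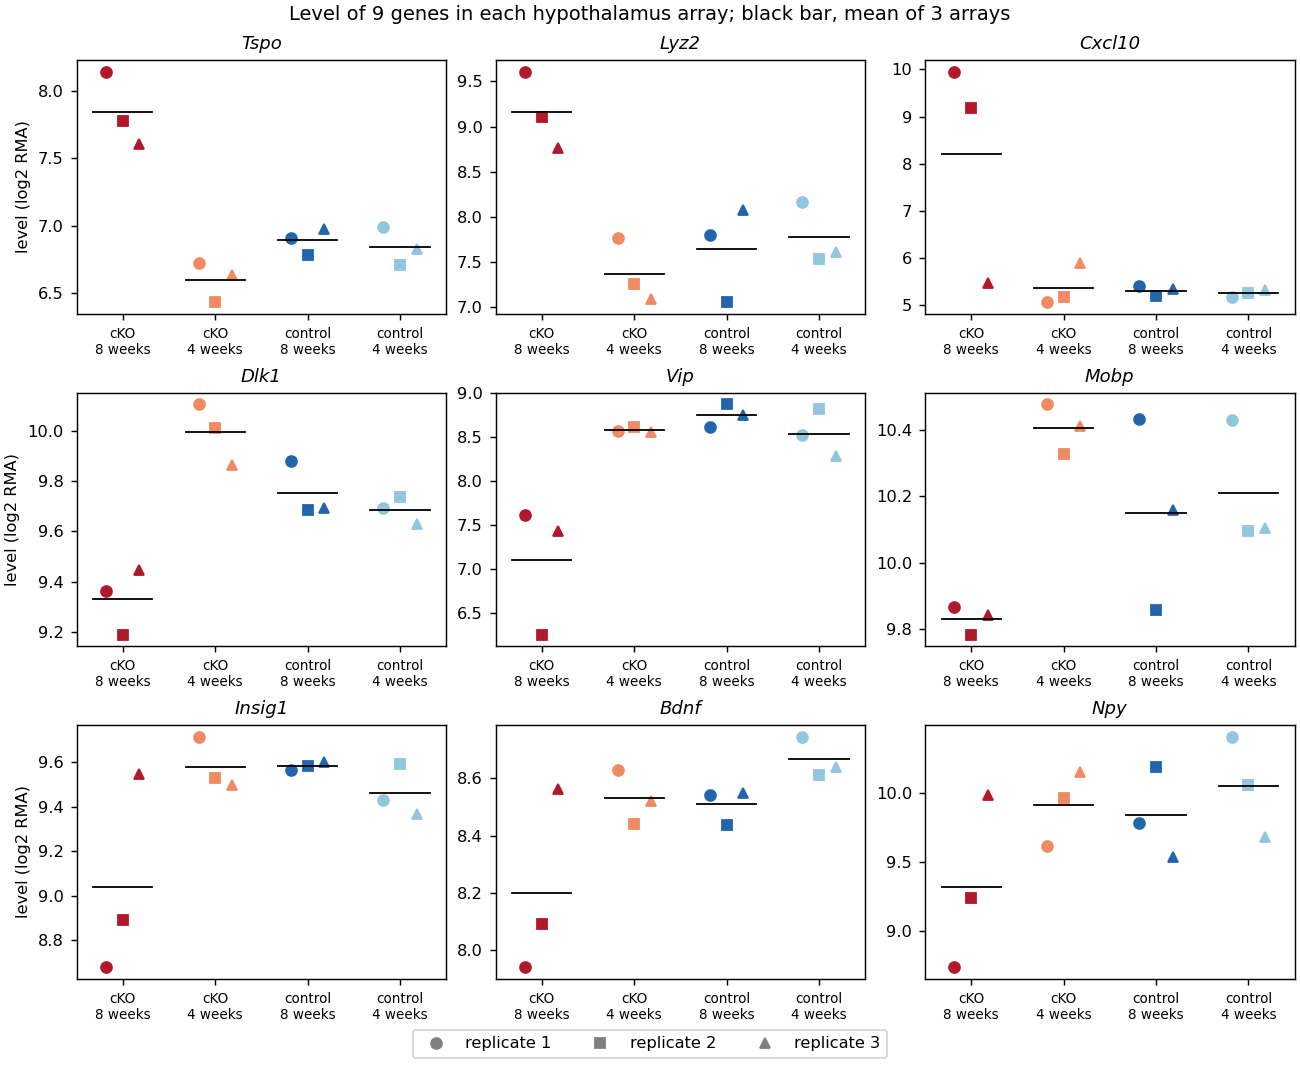
Level (log2 RMA, y axis) of 9 genes in each of the 12 hypothalamus arrays, cKO at 8 weeks, cKO at 4 weeks and the controls of both times along the x axis, with symbols for replicates and a black bar for the mean of 3 arrays. Tspo and Lyz2 are high in all 3 arrays of cKO at 8 weeks, Cxcl10 only in replicates 1 and 2 (9.95 and 9.17, with 5.47 in replicate 3), and Dlk1, Vip and Mobp are low in all 3.

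Genes of microglia were higher at 8 weeks throughout. Of 24 tested microglial genes all 24 were higher, 22 of them at an unadjusted p under 0.05 (825 of all genes, 5.35%), with a median difference of 1.21 (2.32-fold) beside −0.0002 over all genes. None passed at FDR 15% with all arrays, and 23 passed without replicate 3, where the median was 1.73. In bulk tissue more cells of a type and more RNA per cell cannot be told apart. C1qa, a chain of the complement component that starts the classical cascade, was at 12.48, 11.83 and 10.15 in cKO at 8 weeks, against 9.92, 9.73 and 9.81 at 4 weeks, with controls between 9.72 and 10.01. All 3 arrays at 8 weeks were above all others, replicate 3 by a small margin (difference 1.67, SE 0.42, adjusted p = 0.219, and 1.1e-05 without replicate 3).

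The members did not differ to the same extent. The ADP receptor P2ry12 (0.14, SE 0.20) and Tmem119 (0.30, SE 0.10), both markers of the resting state, lay at the low end. The fractalkine receptor Cx3cr1 differed by 0.65. These genes were chosen after their values were seen and do not stand for all resting-state genes of the list. Without replicate 3, Tmem119 passed (0.39, adjusted p = 0.0573) and P2ry12 did not (0.22, adjusted p = 0.941). All 19 tested genes of activated microglia were higher, with a median of 0.93 that lay below the 1.21 of the microglial list. The β-glucan receptor Clec7a was at 9.70 and 9.18 in replicates 1 and 2 at 8 weeks and at 5.62 in replicate 3, against 5.09, 5.12 and 5.05 at 4 weeks. The lipid receptor Trem2 differed by 1.29 and the macrophage lysosomal protein Cd68 by 1.74. In replicate 3 Trem2 was at 7.08, within the 4-week range of 7.07 to 7.11.

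**Figure D2:**
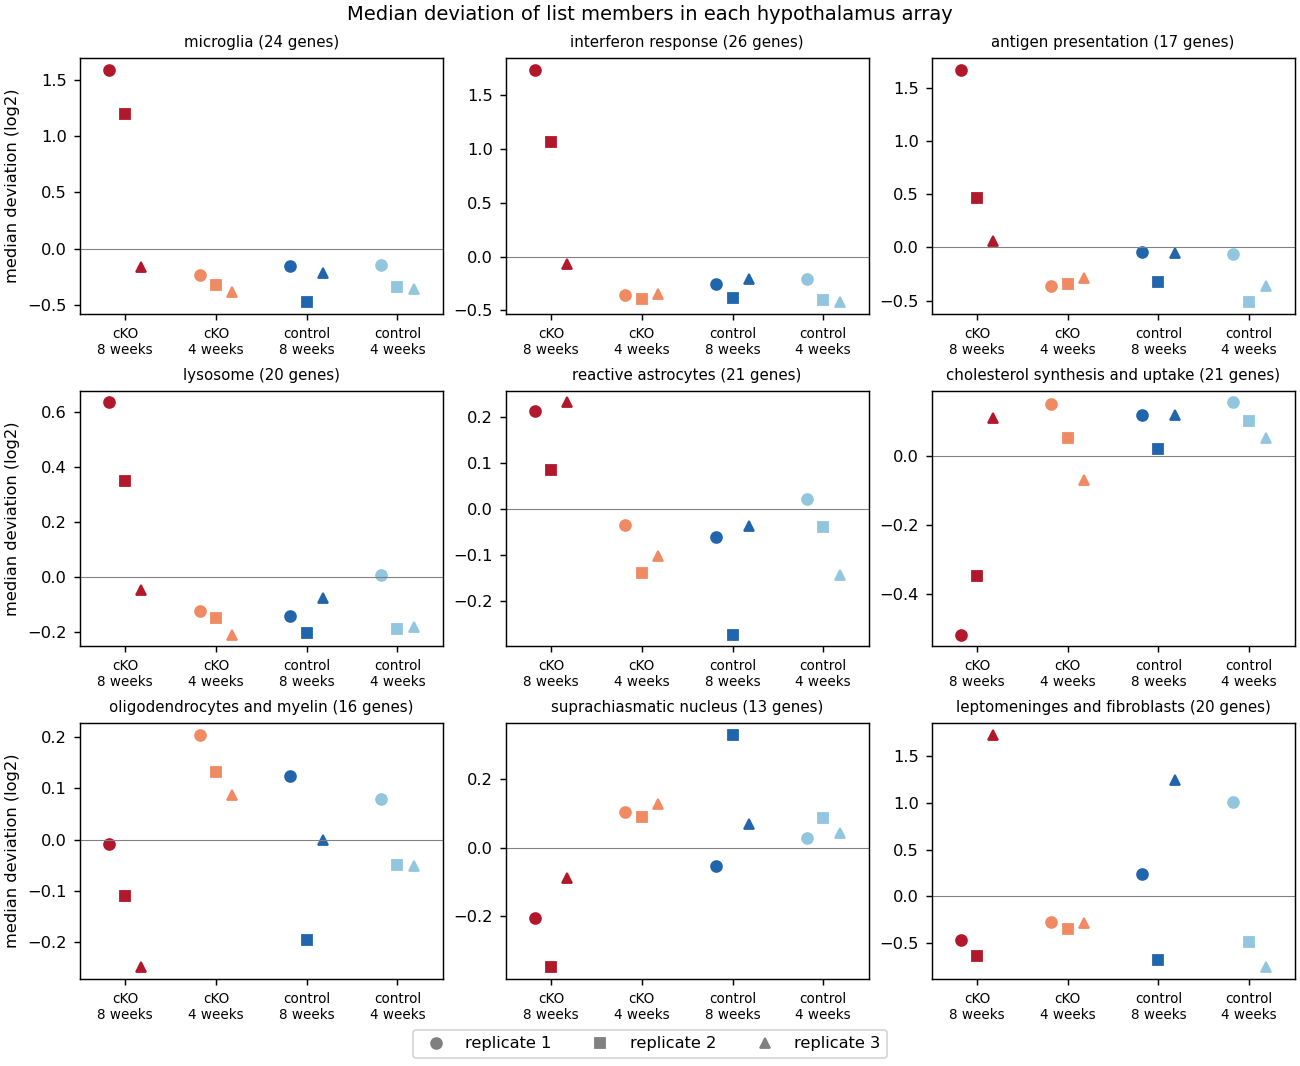
Median deviation of the tested members of each gene list from their mean over the 12 hypothalamus arrays (y axis, log2), with cKO left of control at each time and symbols for replicates. In cKO at 8 weeks the microglial median was 1.59 and 1.20 in replicates 1 and 2 and −0.16 in replicate 3, against −0.39 to −0.24 in cKO at 4 weeks and −0.48 to −0.15 in controls.

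The interferon response was of the same size. All 26 tested members were higher at 8 weeks, 22 at an unadjusted p under 0.05, with a median of 1.28 (2.42-fold). For 20 of the 26 the 3 arrays at 8 weeks lay above the 3 at 4 weeks, against 6.34% of all genes. Their median deviation by array was 1.74, 1.07 and −0.06 in cKO at 8 weeks, against −0.36, −0.40 and −0.35 at 4 weeks and −0.43 to −0.21 in controls. Replicate 3 was thus above every other array, by a margin that was small beside replicates 1 and 2. Without it the median change was 1.72, and 22 of the 26 passed. With the leptomeningeal level of each array as a covariate, an alternative chosen after seeing the data, the median was 1.38 for interferon genes and 1.35 for microglial genes.

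Among effectors, Ifi27l2a, an interferon-induced mitochondrial protein, was at 10.61, 9.81 and 7.72 at 8 weeks, against 6.51, 6.63 and 6.88 at 4 weeks (difference 2.71, SE 0.52, adjusted p = 0.206). Oasl2, a member of the oligoadenylate synthetase family of viral RNA sensors, differed by 2.78 (SE 0.67) and Ifit1, which binds viral RNA ends, by 2.70 (SE 0.60). Irf7, a transcription factor that amplifies the interferon response, was at 8.68, 7.81 and 5.97, against 5.93, 5.96 and 5.99, with replicate 3 inside the 4-week range. The chemokine Cxcl10, which attracts T cells, was at 9.95, 9.17 and 5.47, against 5.06, 5.17 and 5.90 (2.82, SE 0.83, adjusted p = 0.288), again with replicate 3 inside that range. For Cxcl10 the adjusted p was 4.1e-06 without replicate 3.

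Promoter sequence was set beside these values because interferons act through a known DNA element, the interferon-stimulated response element (ISRE), which binds the ISGF3 and IRF factors. In the 250 bases before the start of each gene, on both strands, the letters GAAA, any 2 bases and GAAA again occurred in 9 of the 20 interferon list genes with a RefSeq promoter (45%) and in 936 of 27025 genes (3.46%). They occurred in 2 of 18 microglial genes. In all, 14 patterns were counted, and those shown were chosen after the counts were seen. A match is a description and no proof of a site. The list was drawn up from genes of the interferon response, so a share above that of all genes comes with the choice of list. It bears on the list and not on the change between 4 and 8 weeks. The windows of 4 members are printed 5′ to 3′ on the strand of the gene (RefSeq, GRCm38.p6), with matches in capitals, which run together where matches overlap. Where the element lies on the other strand, its reverse complement is what the capitals spell.
Bst2 (chr8:71537562-71537621, minus strand): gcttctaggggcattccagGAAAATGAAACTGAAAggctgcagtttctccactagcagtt
Gbp2 (chr3:142620579-142620638, plus strand): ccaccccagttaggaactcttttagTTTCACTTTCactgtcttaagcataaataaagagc
Ifit1 (chr19:34640779-34640838, plus strand): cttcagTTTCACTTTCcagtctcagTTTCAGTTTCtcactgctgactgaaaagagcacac
Gbp3 (chr3:142559980-142560039, plus strand): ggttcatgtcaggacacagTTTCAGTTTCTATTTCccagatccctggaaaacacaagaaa
Bst2 (tetherin, which holds budding virus at the cell surface) was at 8.86, 7.41 and 7.06 at 8 weeks, against 6.25, 5.86 and 6.36 at 4 weeks. The guanylate-binding proteins Gbp2 and Gbp3, GTPases that attack the vacuoles of intracellular pathogens, differed by 1.82 and 1.88. Each of these 4 genes was higher in every 8-week array than in every 4-week array, and all 4 passed without replicate 3. They were printed because they had the lowest p between the times among the members with a match. Their values therefore come with that choice and do not tie the element to the change.

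Antigen presentation followed. All 17 tested members were higher, 16 at an unadjusted p under 0.05, with a median of 1.20. B2m, the light chain of MHC class I, was at 12.64, 12.35 and 11.06 at 8 weeks, against 10.74, 10.35 and 10.50 at 4 weeks, and Cd74, the invariant chain of MHC class II, at 10.03, 8.36 and 8.12, against 6.92, 7.06 and 6.97. In both genes replicate 3 was above all 4-week arrays. The MHC class I genes are near-identical to each other, and their single values are uncertain for that reason. Of 20 lysosomal genes 18 were higher (median 0.51), all 14 complement genes (0.49) and 21 of 22 genes of Toll-like receptor, NF-κB and cytokine signalling (0.45). The T cell genes Cd3e (−0.07, SE 0.09) and Cd8a (0.00, SE 0.12) had differences near 0, and the 12 genes of lymphocytes and blood a median of −0.06. In that list 3 genes were higher at an unadjusted p under 0.05. They were the chemokine Ccl5, which T cells and also activated glia make (2.09, SE 0.57), the immunoglobulin heavy chain Ighm of B cells (0.57, SE 0.15) and the killer cell gene Nkg7 (0.28). Ccl5 and Ighm passed without replicate 3. Over the 7 immune lists, 128 of 131 tested genes were higher, beside 7698 of all 15423 genes. Without replicate 3, 101 of the 131 were called higher, beside 481 of all 15423 genes (3.12%). The lists share members, and their genes were high in the same arrays, so they are not separate observations.

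Genes of reactive astrocytes were mostly higher at 8 weeks. The intermediate filament Gfap was at 11.07, 10.23 and 9.25 in cKO at 8 weeks, against 9.25, 9.29 and 9.16 at 4 weeks (0.95, SE 0.34, adjusted p = 0.444, and 0.0063 without replicate 3). Of 21 tested genes of reactive astrocytes 19 were higher, 10 at an unadjusted p under 0.05, with a median of 0.38 (0.20 without replicate 3 and 0.19 with the leptomeningeal covariate), and 1, Tspo, passed at FDR 15%. In this list replicate 3 (0.23) was level with replicates 1 and 2 (0.21 and 0.08), all above the 4-week arrays (−0.14 to −0.04), and replicate 3 is the array with the highest leptomeningeal level (1.73). Aspg, a lysophospholipase and asparaginase that rises in reactive astrocytes, was at 7.33, 6.93 and 6.97, against 6.12, 6.07 and 6.19. The 16 astrocyte marker genes had a median of 0.07 (0.11 without replicate 3), and the difference between these lists was not tested.

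**Figure D3:**
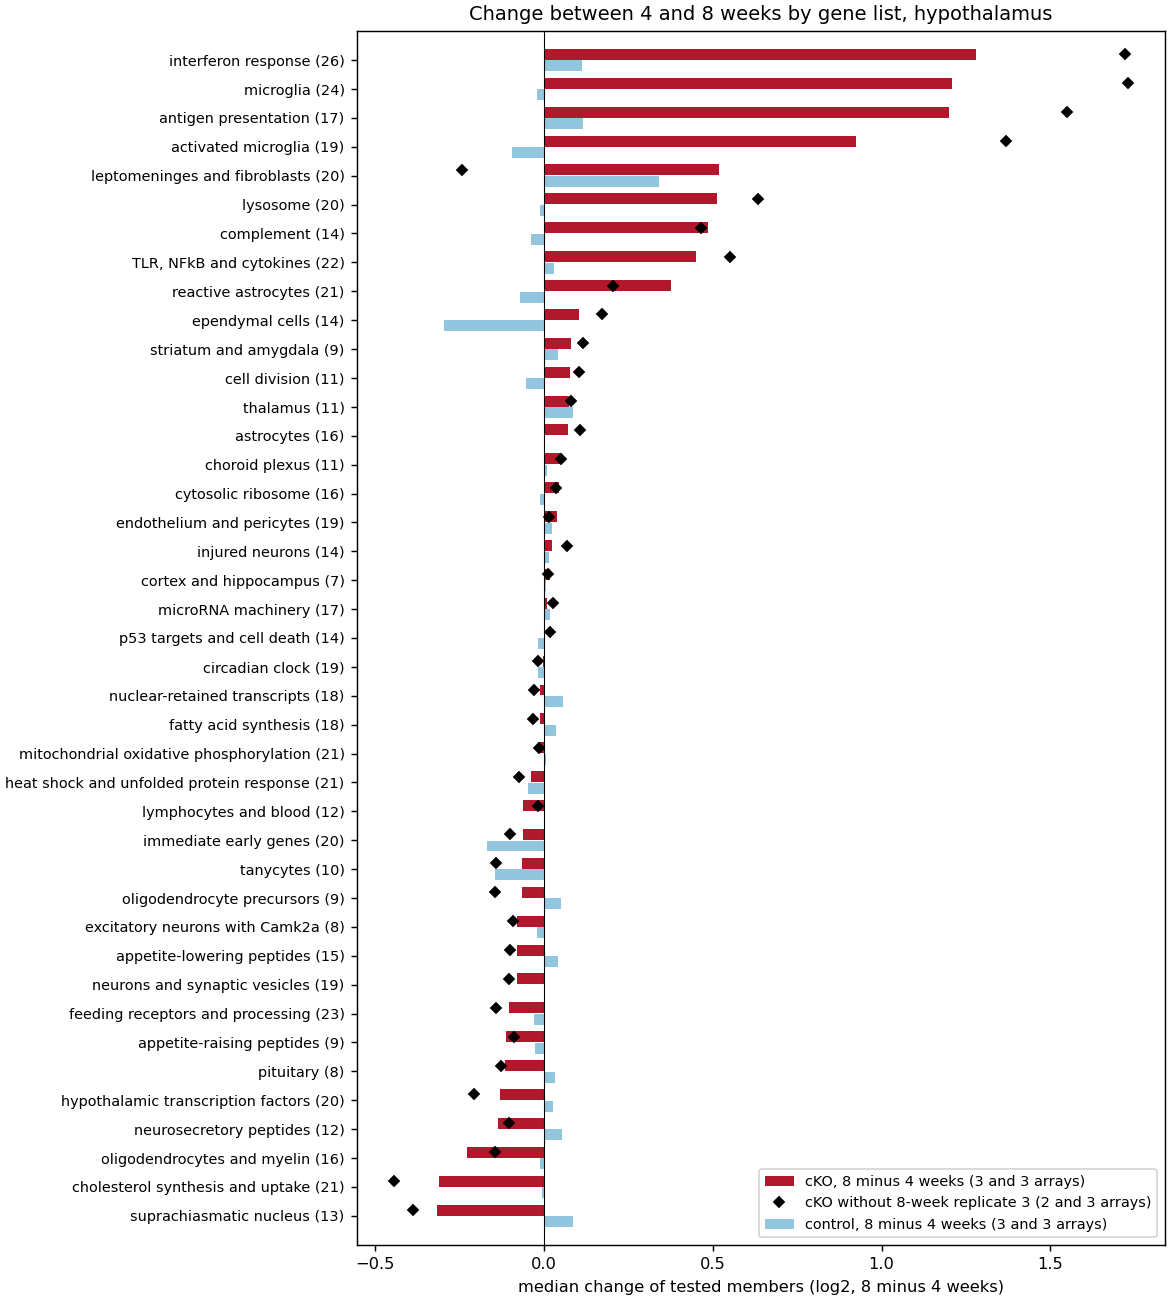
Median change of the tested members of each gene list between 4 and 8 weeks (x axis, log2, 8 minus 4 weeks) in cKO hypothalamus with all arrays, in cKO without 8-week replicate 3, and in control hypothalamus. In cKO the interferon (1.28), microglia (1.21) and antigen presentation (1.20) lists lie farthest to the right, and the suprachiasmatic (−0.32), cholesterol (−0.31) and myelin (−0.23) lists to the left.

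On the lower side, genes of the suprachiasmatic nucleus, of myelin and of cholesterol synthesis were mostly lower. Vip, the peptide of the light-receiving core of the suprachiasmatic nucleus, was at 7.62, 6.25 and 7.43 in cKO at 8 weeks, against 8.57, 8.62 and 8.55 at 4 weeks, with controls between 8.28 and 8.87. Every 8-week cKO array was below all 9 others, and replicate 2 was the lowest (difference −1.48, SE 0.28, adjusted p = 0.206, and 0.0098 without replicate 3). All 13 tested genes of the suprachiasmatic nucleus were lower at 8 weeks, 4 at an unadjusted p under 0.05 (445 of all genes, 2.89%), with a median of −0.32. The median in controls was 0.09.

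By array, the suprachiasmatic genes had a median deviation of −0.20, −0.35 and −0.09 in cKO at 8 weeks, against 0.10, 0.09 and 0.13 in cKO at 4 weeks and −0.05 to 0.33 in controls. Without replicate 3 the median change was −0.39. Prok2, a secreted signal of the pacemaker, differed by −0.36 (SE 0.14) and Grp, gastrin-releasing peptide, by −0.42 (SE 0.20). Six6, a transcription factor needed to form the nucleus, was at 6.50 and 6.67 in replicates 1 and 2 and at 7.46 in replicate 3, against 7.38, 7.41 and 7.42 at 4 weeks, so that replicate 3 was not lower. The 19 genes of the circadian clock itself had a median of −0.00. The nucleus is small, and the part that the cut of the tissue has in these values was not tested. Other genes of single nuclei differed between arrays of 1 group. Lhx8, a transcription factor of the basal forebrain, was at 8.24 and 8.89 in replicates 1 and 2 at 8 weeks and at 3.97 in replicate 3, against 5.02, 4.60 and 4.07 at 4 weeks and 4.31 to 5.77 in controls. The dopamine transporter Slc6a3 was at 9.78, 5.96 and 9.07, against 10.80, 10.18 and 10.64, and varied between 6.58 and 10.98 in controls.

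Myelin genes were lower in all 3 arrays. Mobp, a structural protein of compact myelin, was at 9.87, 9.78 and 9.84 in cKO at 8 weeks, against 10.48, 10.33 and 10.41 at 4 weeks (−0.57, SE 0.13, adjusted p = 0.206). Mal, a proteolipid of myelin, was at 10.85, 10.87 and 10.63, against 11.28, 11.25 and 11.24 (−0.47, SE 0.09, adjusted p = 0.206, and 0.0478 without replicate 3). The 8-week cKO arrays of Mal lay around the lower end of the control range of 10.80 to 11.10, and the 4-week cKO arrays above it. Of 16 tested genes of oligodendrocytes and myelin 15 were lower, 8 at an unadjusted p under 0.05, and for 9 the groups did not overlap (5.69% of all genes). The median was −0.23, and −0.15 without replicate 3. By array it deviated by −0.01, −0.11 and −0.25 in cKO at 8 weeks, against 0.21, 0.13 and 0.09 in cKO at 4 weeks, and both groups overlapped with the controls, which lay between −0.20 and 0.12. Mbp, the major basic protein of myelin, differed by 0.04 (SE 0.29).

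Cholesterol genes were lower in replicates 1 and 2 only. Of 21 tested genes of cholesterol synthesis and uptake 20 were lower, 9 at an unadjusted p under 0.05, with a median of −0.31. By array their median deviation was −0.52, −0.35 and 0.11 in cKO at 8 weeks, against 0.15, 0.05 and −0.07 at 4 weeks and 0.02 to 0.16 in controls. Insig1, which holds the sterol sensor in the endoplasmic reticulum and is itself a sterol-regulated gene, was at 8.68, 8.89 and 9.55, against 9.72, 9.53 and 9.50 (−0.54, SE 0.17, adjusted p = 0.353). Replicate 3 was inside the 4-week range. Without it Insig1 differed by −0.80 (adjusted p = 0.00079), and 12 of the 52 genes called lower were of this list. They included Hmgcs1 (−0.68), which makes the first committed intermediate of the pathway, and Fdps (−0.66) and Sqle (−0.55), enzymes of its middle steps.

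The promoters of this list are shown because its genes share a known element beside the sterol response element, the CCAAT box bound by NF-Y. CCAAT, on either strand, occurred in the 250 bases before the start in 16 of the 17 list members with a promoter (94.1%) and in 10133 of 27025 genes (37.5%). In lists that were higher at 8 weeks it occurred in 75% of antigen presentation, 44.4% of microglial and 30% of interferon genes. In lists that were lower it occurred in 50% of suprachiasmatic and 45.5% of myelin genes. The share is a trait of the list and does not bear on the change between the times. The sterol response element in the spelling TCACNCCAC was found in only 1 of these 17 genes and in 1.22% of the genome's promoters. The windows of 4 members are printed as above, the capitals marking 1 CCAAT box or its reverse complement, ATTGG. The 4 were chosen by the lowest p between the times among the members with a box.
Insig1 (chr5:28071171-28071225, plus strand): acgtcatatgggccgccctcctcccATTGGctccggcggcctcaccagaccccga
Hsd17b7 (chr1:169969206-169969242, minus strand): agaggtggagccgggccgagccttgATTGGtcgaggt
Mvd (chr8:122443423-122443474, minus strand): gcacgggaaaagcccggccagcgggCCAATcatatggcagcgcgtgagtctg
Hmgcs1 (chr13:119690281-119690335, plus strand): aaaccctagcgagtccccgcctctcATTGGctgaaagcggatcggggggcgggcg
Hsd17b7, a reductase late in the pathway, differed by −0.31 (SE 0.12) and Mvd, which makes its isoprene unit, by −0.36 (SE 0.15).

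Among feeding genes none passed at FDR 15% with all arrays. The 9 tested appetite-raising peptides had a median of −0.11, the 15 appetite-lowering ones −0.08, and the 23 receptors and processing enzymes −0.10. Npy was at 8.74, 9.24 and 9.99 in cKO at 8 weeks, against 9.62, 9.96 and 10.15 at 4 weeks and 9.54 to 10.41 in controls (−0.59, SE 0.29, adjusted p = 0.653). Replicates 1 and 2 were below all others and replicate 3 was not. Without replicate 3 Npy differed by −0.92 (adjusted p = 0.102). That lies under the 15% threshold, but it is a description and no call, since replicate 3 was singled out by these same values.

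Pomc, the precursor of α-MSH, was at 8.49, 9.43 and 10.71 in cKO at 8 weeks, against 9.37, 9.30 and 9.30 at 4 weeks and 9.72 to 10.57 in controls (0.22, SE 0.41, adjusted p = 0.976). The spread over the 8-week arrays was wider than the whole range of the other 9. Hcrt was at 12.30, 12.34 and 11.31, against 12.40, 12.64 and 12.34, with replicate 3 the low one (−0.48, SE 0.24). Pmch differed by −0.00 (SE 0.08), Gal by 0.03 (SE 0.10) and Cartpt by −0.12 (SE 0.18). Agrp was not among the tested genes. The leptin receptor Lepr differed by −0.11 (SE 0.12), and Socs3, an inhibitor of leptin and cytokine signalling, was at 7.18, 6.77 and 6.79, against 6.63, 6.21 and 6.63 (0.43, SE 0.15, adjusted p = 0.421). Bdnf, a growth factor that lowers food intake, was at 7.94, 8.09 and 8.56, against 8.63, 8.44 and 8.52, and differed by −0.52 without replicate 3 (adjusted p = 0.0074). Npvf, an RFamide peptide, and Adcyap1, the peptide PACAP, also passed as lower without replicate 3, with −0.43 (adjusted p = 0.126) and −0.60 (adjusted p = 0.0822), beside −0.28 and −0.33 with all arrays.

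**Figure D4:**
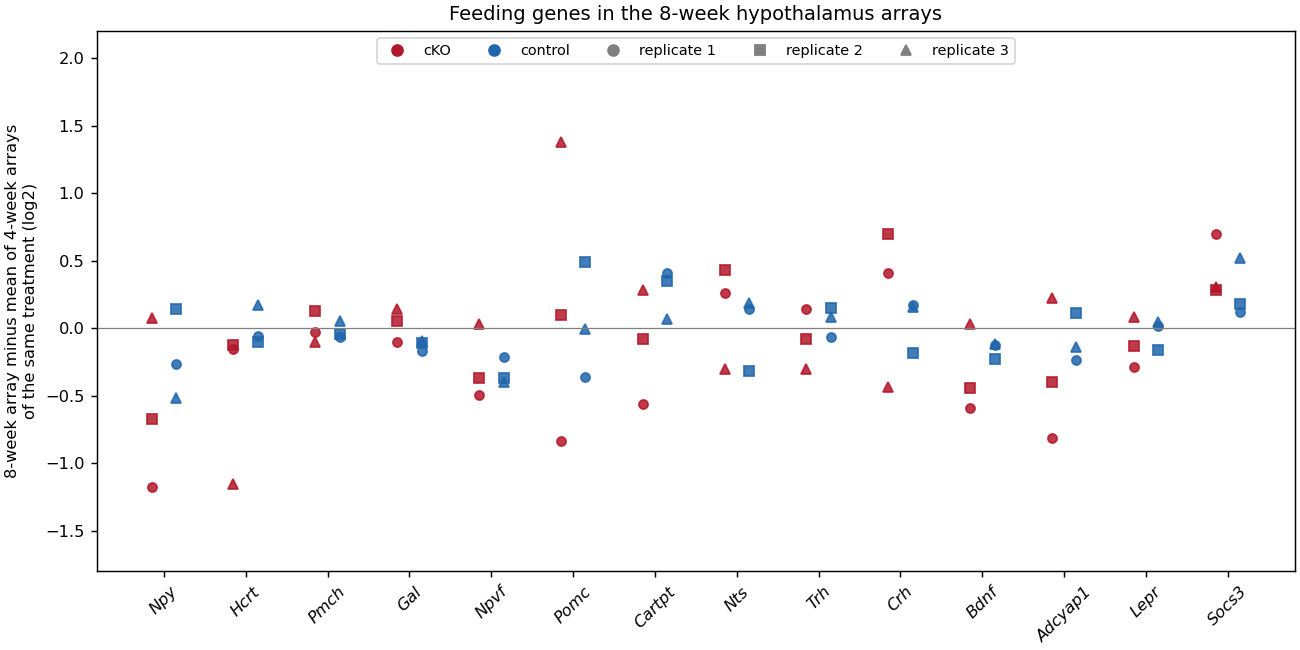
Feeding genes in each 8-week array minus the mean of the 4-week arrays of the same treatment (y axis, log2), cKO left of control for each gene, with symbols for replicates. Among the cKO arrays replicate 3 is the highest in Npy and Pomc and the lowest in Hcrt, while Pmch stays close to 0.

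The controls give the change over the same 4 weeks without the deletion. Their actin 3′ minus 5′ difference was 1.32 to 1.59 at 8 weeks and 1.25 to 1.28 at 4 weeks, without overlap. The 8-week controls also lay above every cKO array, of which the highest was 1.29. The part of RNA integrity in the control change was not tested. In control hypothalamus 0 of 15423 genes (0%) passed between 8 and 4 weeks in limma, and 323 had an unadjusted p under 0.05. A plain t-test for each gene also called 0 after adjustment. The medians of the microglial (−0.02), interferon (0.11) and antigen presentation (0.11) lists were small there, and Tspo differed by 0.05. The test of the difference itself, the cKO change minus the control change, called 0 genes (0%), with 689 at an unadjusted p under 0.05 and a lowest adjusted p of 0.576, and 0 in the plain t-test as well. Tspo led it with 1.20 (SE 0.19, adjusted p = 0.576) and Dlk1 came to −0.73 (SE 0.13, adjusted p = 0.869). Thus no gene's change in cKO was shown to differ from that in controls with all arrays. Without 8-week cKO replicate 3, 325 genes passed this test, 315 of them higher in cKO.

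The time change was then set against that of cortex and hippocampus. The cortex arrays came from the same 6 cKO animals, and the time change of cKO differed between hypothalamus and cortex for 1394 of 11784 genes (11.8%), of which 1205 were more positive in hypothalamus and 189 more negative (limma with the animal as a random block). With each array centred on its median, 715 passed, 565 more positive and 150 more negative. The median over all genes of this difference was 0.12, and changes are to be read relative to it. Tspo differed by 1.25 in hypothalamus and by −0.06 in cortex (difference 1.32, SE 0.22, adjusted p = 0.0114). Lyz2 differed by 1.79 and −0.22 (difference 2.01, SE 0.34, adjusted p = 0.0114), C1qa by 1.67 and −0.05 (1.72, SE 0.43, adjusted p = 0.0466) and Vip by −1.48 and 0.12 (−1.60, SE 0.30, adjusted p = 0.0204). The count came to 332 without the hypothalamus array of 4-week cKO replicate 3 and 673 without that of 4-week replicate 2. It came to 559 without that of 8-week replicate 1 and to 1075 without that of 8-week replicate 3. The lists did not all differ from cortex. The median of the difference was 1.27 for microglial genes (20 of 23 passed). It was −0.06 for cholesterol genes (3 of 20), −0.04 for myelin genes (0 of 14) and −0.19 for suprachiasmatic genes (1 of 6). In cKO cortex the myelin median deviation was −0.06, −0.12 and 0.06 at 8 weeks, against 0.09, 0.18 and 0.16 at 4 weeks.

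In the cortex of the 2 animals with the high hypothalamic values, the microglial median deviation was 0.15 and 0.17, and −0.11 in the third animal, against 0.17, 0.14 and 0.04 at 4 weeks. In cKO hippocampus, from other animals, it was 0.06, −0.17 and −0.12 at 8 weeks. Between hypothalamus and hippocampus the cKO time change differed for 0 of 12953 genes (0%) in limma, with 992 at an unadjusted p under 0.05 and Tspo first (1.34, SE 0.23, adjusted p = 0.159). Without the hypothalamus array of 8-week replicate 3, 315 genes passed.

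**Figure D5:**
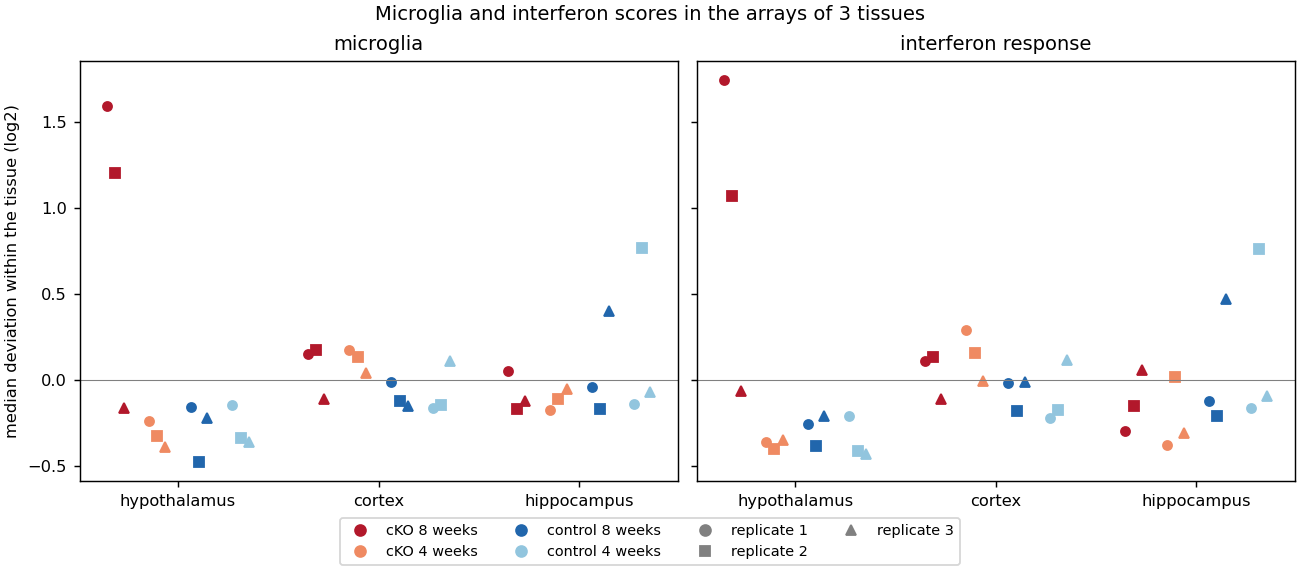
Median deviation of microglial and interferon genes within each tissue (y axis, log2) in the cKO and control arrays of hypothalamus, cortex and hippocampus (x axis). The hypothalamus of cKO replicates 1 and 2 at 8 weeks holds the highest values (1.59 and 1.20 for microglia), and the next are those of 2 control hippocampi (0.77 and 0.40).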

How the data were processed

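RNA of cortex, hypothalamus and hippocampus was hybridised to Affymetrix mouse expression arrays. The deposited values are log2 intensities that the authors made with RMA for each tissue apart (version not given in the sources used here), so levels were compared only within a tissue. The platform's annotation names 1 gene for 34945 of 45101 probe sets, more than 1 for 932 and no gene for 9160, and 64 are controls. The study's present calls were not used here. Probe sets were kept where the third-highest of the 12 hypothalamus values was at least 4.9, and the one with the highest variance stood for each gene, leaving 15423 genes (445 under joined names).

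Limma 3.58.1 in R 4.3.3 fitted the 4 hypothalamus groups in 1 model with 8 residual degrees of freedom, and two-sided p-values were adjusted by Benjamini-Hochberg and called at an FDR of 15%, as in the methods. The comparison with cortex took the animal as a random block (duplicateCorrelation). Gene lists were described by counts and medians, with no test. A list's value in an array is the median deviation of its members from their mean over the tissue's 12 arrays. The comparison, the lists and the named genes were chosen with earlier results of these data known. Named genes are those with the lowest p in each direction, in each list and in each comparison, and all feeding genes. Others were chosen after their values were seen, namely Cd3e, Cd68, Cd8a, Cx3cr1, Cxcl10, Gbp2, Gbp3, Gbx1, Gfap, Hmgcs1, Ifit1, Irf7, Mbp, Mvd, Oasl2, P2ry12, Slc6a3, Sqle, Tmem119 and Trem2. The pipeline was tested on simulated data. Only 3 arrays per group limit the precision, and p-values measure the spread between these animals.

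Promoters came from RefSeq (GRCm38.p6). Alternatives were other filters, probe set choices, scalings, variance models, blocks, a plain t-test for each gene and leaving out each array. A covariate of the leptomeningeal genes and a fit without the 3 arrays highest in them were added after seeing the data.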

Additional observations from a re-analysis of the deposited data

Results flagged for a closer look

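The time change of cKO mice differed between hypothalamus and cortex, by the test of that difference, for 1394 genes, 1205 of them more positive in hypothalamus. The median of this difference over all genes was 0.12, and with each array centred on its median 715 genes passed. Without the hypothalamus array of 4-week cKO replicate 3, 332 passed. The 5 genes with the lowest p were all more positive there, each with an adjusted p of 0.0114 (limma with the animal as a random block). Npl, an enzyme of sialic acid breakdown, differed by 0.30 in hypothalamus and by −0.46 in cortex (difference 0.76, SE 0.11). The difference was 1.57 for the calcium-dependent protease Capn3 (SE 0.24), which differed by 0.97 and −0.59, and 0.85 for Smagp (SE 0.13), a small membrane glycoprotein. For the interferon-induced gene Ifi35 it was 1.51 (SE 0.25), with 1.26 in hypothalamus and −0.26 in cortex, and for Otulinl 0.76 (SE 0.13). In all 5 genes the cortex value was negative. A more positive difference can come from a fall in cortex as well as from a rise in hypothalamus. The RMA of each tissue was run apart.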

How the results depend on the processing

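The 2 calls of the cKO time change became 0 with the probe set of the highest mean, with the compared arrays alone and in a plain t-test for each gene, and 1 at an FDR of 5%. They became 398 with array weights, 312 with the leptomeningeal covariate, 575 without the 3 arrays highest in those genes (both added after seeing the data) and 115 with the animal number range as a block. With replicate number as a block 136 passed. The numbers join different animals. Between the 2 times in cKO, residuals of equal numbers correlated by 0.04, 0.10 and 0.10, and 6 of 6 arrays correlated best with their own number. In controls the correlations between the times were −0.09, 0.14 and −0.45. Between cKO and control they were 0.20, 0.27 and 0.27 at 8 weeks and 0.11, −0.03 and 0.23 at 4 weeks. Leaving out 1 array gave 1 to 533 calls, 533 without 8-week cKO replicate 3 and at most 4 without any other. Tspo was called in 22 and Dlk1 in 14 of 25 settings.

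The controls gave 0 to 1 calls without 1 array and 1 with array weights. The test of cKO against control change gave 239 calls without the 3 leptomeningeal arrays and 0 to 325 without 1 array. For hypothalamus against cortex the 1394 became 823 with no filter, 715 with median-centring (565 higher and 150 lower), 225 at an FDR of 5% and 452 with shared animals ignored, and 332 to 1632 without 1 hypothalamus array. Against hippocampus 1 passed with median-centring, 2 with a trended robust variance, and 0 to 315 without 1 hypothalamus array. The actin difference ran from −0.06 to 0.02. Of 222 named genes 165 kept their sign in all settings, as did 23 of 42 list medians. The leptomeningeal median turned to −0.24 without replicate 3, against 0.52 with it.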

Other observations

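In control hypothalamus the 5 genes with the lowest p between the times included 2 immediate early genes, which neuronal activity induces. Egr1, a transcription factor, was at 9.28, 9.62 and 9.35 in controls at 8 weeks, against 10.02, 10.05 and 10.03 at 4 weeks (−0.62, SE 0.10, adjusted p = 0.876). Fos was at 8.16, 8.66 and 8.75, against 9.64, 9.04 and 9.48 (−0.86, SE 0.17, adjusted p = 1). Neither passed, though the groups did not overlap, and in cKO they differed by −0.16 and 0.05. The actin difference did not overlap between these control groups either, and its part in these values was not tested. The 20 immediate early genes had a median of −0.06 in cKO and −0.17 in controls.

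Microglial genes were also high in 2 control hippocampi, with a median deviation of 0.40 in 8-week replicate 3 and 0.77 in 4-week replicate 2, and interferon genes in the same 2 arrays with 0.47 and 0.76. Single arrays with a high immune level were therefore found outside the cKO hypothalamus too, in vehicle-injected mice. In cKO hypothalamus at 8 weeks, Lhx6 (6.98, 7.44 and 5.94, against 5.71 to 6.06 at 4 weeks) and Gbx1 (5.41, 5.83 and 4.71), transcription factors of ventral forebrain neurons, were high in the same 2 arrays as the immune genes, beside Lhx8, and their part in that result was not tested.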
